A study of Caenorhabditis elegans with 12 samples.

Results

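Sex determination in Caenorhabditis elegans runs through a short chain of genes, and 10 of them were examined here as targets of small RNAs: xol-1, her-1, tra-1, tra-2, tra-3, fem-1, fem-3, fog-1, fog-2 and fog-3. They were chosen by their WormBase symbols, and all 10 were found among the 46726 gene identifiers of the count table. Small RNA was sequenced from adult whole animals of 2 strains grown at 20 °C, each fed bacteria that make double-stranded RNA (dsRNA). The hrde-1(gg594) allele is listed for both strains: YY1312, the control, which the sample titles call wild type, and YY1192, which also carries hrde-2(gg517). The strains thus differ at hrde-2, a gene of RNAi inheritance. This dsRNA either matched oma-1, a zinc-finger gene of maturing oocytes, or no worm gene (the empty vector L4440). The labels list 12 samples, 3 in each of 4 groups, but the table holds 1 column per group, so that no spread between samples could be measured. Values below follow the order L4440-fed control, oma-1-fed control, L4440-fed hrde-2 and oma-1-fed hrde-2 wherever 4 are given. All control samples share a 5′ barcode and all hrde-2 samples another, so that barcode and genotype cannot be told apart.

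The switch gene xol-1 promotes male fate in embryos with a single X chromosome and is known as a target of piRNAs, the small RNAs bound by the Argonaute PRG-1. Downstream, the secreted protein HER-1 blocks the membrane receptor TRA-2, and the calpain protease TRA-3 processes TRA-2. When TRA-2 is inactive, FEM-1 and FEM-3 bring about removal of TRA-1, the GLI-family transcription factor that ends the chain and promotes female fate. In the hermaphrodite germ line, FOG-2 helps to lower TRA-2 for the time in which sperm are made, and FOG-1 and FOG-3 are needed for germ cells to become sperm. The cloning used here takes in small RNAs without a 5′ monophosphate, such as the 22G RNAs that RNA-dependent RNA polymerases make on target transcripts. A read at one of these genes is thus a small RNA that matches it, and not a measure of its mRNA.

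Reads assigned to genes numbered 16057238 to 39077097 per column. Levels are given as CPM, reads scaled to a common total, with trimmed mean of M values (TMM) factors, by which 1 read is worth least in hrde-2 on L4440. The oma-1 gene had 37, 10881, 148 and 5250 reads so that both columns labelled oma-1 dsRNA carried the reads of that trigger. Small RNA reads at hrde-2 do not show whether the gene is intact. In whole animals, fewer cells of a type and less small RNA per cell cannot be told apart. Intervals below are 95% intervals for counting error alone. They treat reads as independent, which PCR copies of a molecule are not, so that they may be too narrow.

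Small RNA levels differed widely among the 10 genes. Per length, tra-3, xol-1 and fem-1 lay above the median of tested protein-coding genes (0.520 CPM per kilobase), and her-1 and fog-3 lay near the bottom. Together they held 176, 293, 1200 and 317 reads, which is 10.8 (9.23 to 12.5), 12.9 (11.4 to 14.4), 18 (16.996 to 19.05) and 14.5 CPM (12.98 to 16.2). The L4440-fed hrde-2 column stood above both control columns beyond counting error, with tra-3 holding 458 of its reads. Under the same scaling, that excess rested on tra-3. Without it the sums were 9.78 (8.32 to 11.42), 11.98 (10.6 to 13.49), 11.13 (10.34 to 11.96) and 12.15 CPM (10.73 to 13.7). These 4 intervals overlap, and L4440-fed hrde-2 lay below oma-1-fed control. For the sums of all 10 genes, the ratio of hrde-2 to control depended on the scaling. It ran from 1.67 to 4.42 on L4440 and from 1.13 to 2.31 on oma-1 dsRNA over all settings. Of the 10 genes, tra-3 alone reached 5 CPM, in 1 column. Taken per kilobase of exon and averaged over the columns, the order was tra-3 (1.11 CPM per kilobase), xol-1 (1.06), fem-1 (0.966), tra-2 (0.503), fog-2 (0.502), fem-3 (0.397), tra-1 (0.343), fog-1 (0.288), fog-3 (0.151) and her-1 (0.107). The first of these stood at the 76.9th percentile of tested protein-coding genes and the last at the 2.50th. In 3 of the 4 columns no gene differed from its neighbour in that column's order beyond the counting intervals. In hrde-2 on L4440, with the most reads, 3 of 9 neighbouring pairs had separate intervals: tra-3 over xol-1, xol-1 over fem-1, and fem-1 over fog-2. The mean of tra-3 rests on that column, and in control on L4440 fem-1 came first.

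**Figure D1:**
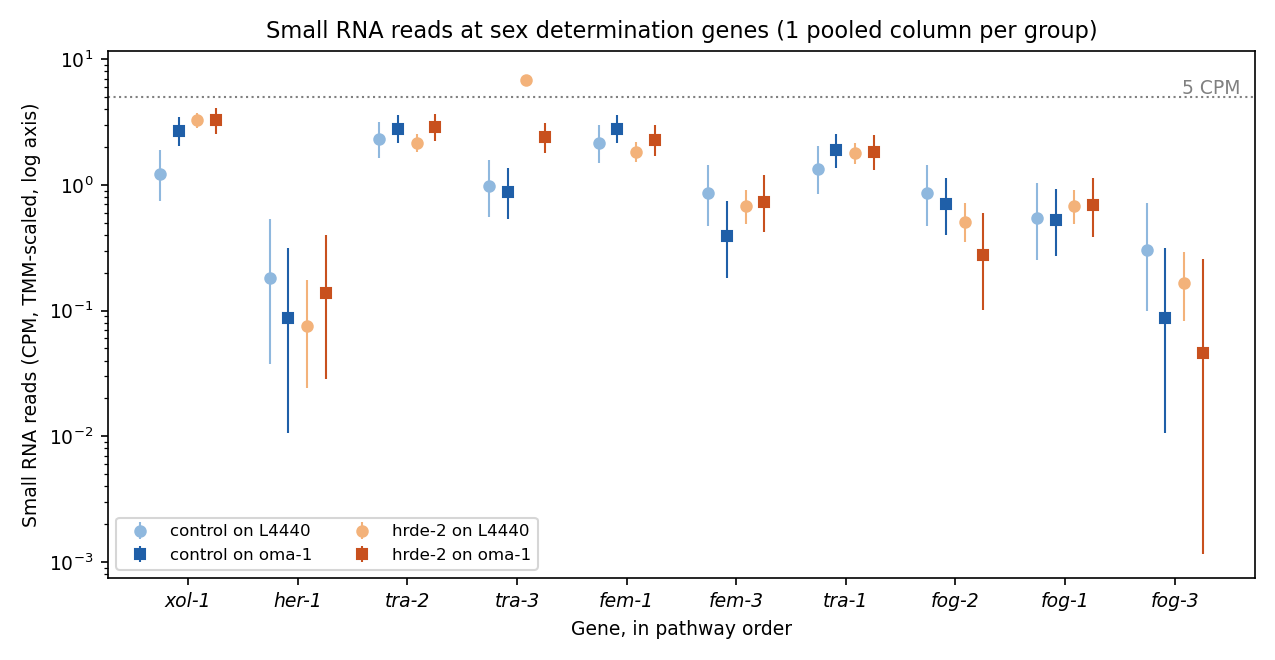
Small RNA reads at each of the 10 genes (CPM on a logarithmic axis) in the 4 groups, with exact 95% Poisson intervals of counting error; each point is 1 pooled column. The hrde-2 column on L4440 stands above the others at tra-3 (6.87 CPM), and control on L4440 stands below the others at xol-1 (1.22 CPM).

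The comparison of strains asks which endogenous small RNAs depend on hrde-2. Averaged over both foods, small RNAs at tra-3 and xol-1 were higher in hrde-2 mutants, and those at the other 6 genes tested did not pass the test. The test was edgeR's quasi-likelihood test in an additive fit of food and genotype over all 16329 features with enough reads, with Benjamini-Hochberg adjustment. It called 8.95% of features higher and 9.7% lower in hrde-2, against 2 of 8 genes higher and 0 of 8 lower. The fit has 1 residual degree of freedom, from 4 pooled columns, so that its p-values lean on a spread shared by all features and not on separate samples. The remaining genes, her-1 and fog-3, had too few reads to be tested.

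At the head of the pathway, xol-1 (WBGene00006962, chromosome X, 8041313 to 8044409, plus strand, build WBcel235) had 20 reads in L4440-fed control, 61 in oma-1-fed control, 217 in L4440-fed hrde-2 and 71 in oma-1-fed hrde-2. These are 1.22 CPM (0.747 to 1.89), 2.68 (2.05 to 3.44), 3.25 (2.84 to 3.72) and 3.25 (2.54 to 4.11). Control on L4440 was the low column, and the intervals of the other 3 columns overlap. The ratio of hrde-2 to control was 2.66 (1.68 to 4.45) with L4440 and 1.22 (0.851 to 1.74) with oma-1 dsRNA. Averaged over foods the log2 difference was 0.78 ± 0.26 (SE), with an adjusted p of 0.0215 by edgeR and of 0.5003 by DESeq2. This average joins unlike differences, 1.40 on L4440 and 0.28 on oma-1 dsRNA, of which the second lies within counting error. Its place among all tested features was the 79.4th percentile. No other gene lies in the xol-1 span.

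The ligand gene her-1 (WBGene00001842, chromosome V, 9697015 to 9702035, plus strand) had 3, 2, 5 and 3 reads. At this depth no difference between groups could be detected. The receptor gene tra-2 (WBGene00006605, chromosome II, 6955384 to 6965673, minus strand) had 38, 64, 144 and 63 reads, or 2.32, 2.81, 2.16 and 2.89 CPM. All 4 intervals overlap. The ratio of hrde-2 to control was 0.930 (0.647 to 1.37) with L4440 and 1.03 (0.714 to 1.48) with oma-1 dsRNA; the log2 difference averaged over foods was −0.03 ± 0.25 (SE; edgeR adjusted p = 0.958). A stretch of 26 bases of tra-2 overlaps ceh-38, a gene on the other strand, and the sources used here do not give the strand setting of the counting.

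The protease gene tra-3 (WBGene00006606, chromosome IV, 14436445 to 14444183, minus strand) had 16 reads in L4440-fed control, 20 in oma-1-fed control, 458 in L4440-fed hrde-2 and 52 in oma-1-fed hrde-2. These are 0.978 CPM (0.559 to 1.59), 0.878 (0.536 to 1.36), 6.87 (6.26 to 7.53) and 2.38 (1.78 to 3.13). Both control columns are low with overlapping intervals, both hrde-2 columns lie above them, and the 2 hrde-2 columns differ from each other. The ratio of hrde-2 to control was 7.02 (4.28 to 12.4) with L4440 and 2.72 (1.59 to 4.802) with oma-1 dsRNA. Averaged over foods the log2 difference was 2.18 ± 0.30 (SE), higher on both foods, with an adjusted p of 3.11e-11 by edgeR and 0.0021 by DESeq2. It ranked 525 of 16329 features from the top, at the 96.8th percentile.

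The tra-3 span is crowded with piRNA genes. It holds 28 annotated piRNA loci, 18 on its own strand and 10 on the other, and none of them touches a tra-3 exon. Of 19985 protein-coding genes, 4.87% have any piRNA locus in their span, and 47, tra-3 among them, have as many as tra-3 or more. These counts cover all chromosomes, and genes near tra-3 on chromosome IV were not counted apart. Reads at these 28 loci numbered 0, 1, 6 and 0, spread over 5 loci. No other feature of the table had reads within 15 or 5% of those of tra-3 in all columns, so that no near-equal gene was seen for it.

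Among the genes that act on TRA-1, fem-1 (WBGene00001411, chromosome IV, 5533140 to 5537962, minus strand), an ankyrin-repeat protein that recruits targets to a CUL-2 ubiquitin ligase, had 35, 64, 122 and 50 reads. The levels of 2.14, 2.81, 1.83 and 2.29 CPM have intervals that all overlap. Its ratio of hrde-2 to control was 0.855 (0.583 to 1.28) with L4440 and 0.816 (0.552 to 1.1999) with oma-1 dsRNA, and the averaged log2 difference was −0.26 ± 0.26 (SE; edgeR adjusted p = 0.542). Its partner fem-3 (WBGene00001413, chromosome IV, 9104966 to 9107607, plus strand) had 14, 9, 45 and 16 reads. Its ratios of 0.789 (0.425 to 1.56) with L4440 and 1.86 (0.773 to 4.77) with oma-1 dsRNA point opposite ways, and both intervals hold 1. For fem-3 the averaged log2 difference was 0.15 ± 0.41 (SE; edgeR adjusted p = 0.857).

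The terminal regulator tra-1 (WBGene00006604, chromosome III, 11170890 to 11195201, minus strand) had 22, 43, 119 and 40 reads, or 1.34, 1.89, 1.78 and 1.83 CPM. Control on L4440 was the lowest column, but its interval of 0.843 to 2.04 overlaps the others. The ratio of hrde-2 to control was 1.33 (0.837 to 2.20) with L4440 and 0.972 (0.616 to 1.53) with oma-1 dsRNA. Its averaged log2 difference of 0.18 ± 0.28 (SE) had an edgeR adjusted p of 0.735.

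The germline genes of sperm fate had the fewest reads after her-1. The F-box gene fog-2 (WBGene00001482, chromosome V, 20199254 to 20200648, plus strand) had 14, 16, 34 and 6 reads, or 0.856, 0.702, 0.510 and 0.275 CPM. Both hrde-2 columns are the lower ones, with ratios of 0.596 (0.312 to 1.202) with L4440 and 0.392 (0.126 to 1.05) with oma-1 dsRNA, and the intervals hold 1. The averaged log2 difference of −0.95 ± 0.42 (SE) did not pass the test (edgeR adjusted p = 0.100; unadjusted p = 0.0236). Its paralog ftr-1 (WBGene00013756, chromosome V, 20196971 to 20198241, plus strand) lies 1012 bases away and had 11, 11, 26 and 6 reads, with an averaged log2 difference of −0.79 ± 0.46 (SE; edgeR adjusted p = 0.243). The sources used here do not say how reads that match both were counted, so that the reads of fog-2 and ftr-1 may not be separate. The gene fog-1 (WBGene00001481, chromosome I, 3211046 to 3217267, plus strand), of the CPEB family of RNA-binding proteins, had 9, 12, 45 and 15 reads. At fog-1 L4440 gave a ratio of 1.23 (0.592 to 2.85), oma-1 dsRNA gave 1.31 (0.570 to 3.05), and the adjusted p by edgeR was 0.649. The gene fog-3 (WBGene00001483, chromosome I, 10016765 to 10018121, plus strand), of the Tob family, had 5, 2, 11 and 1 reads, too few to compare.

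**Figure D2:**
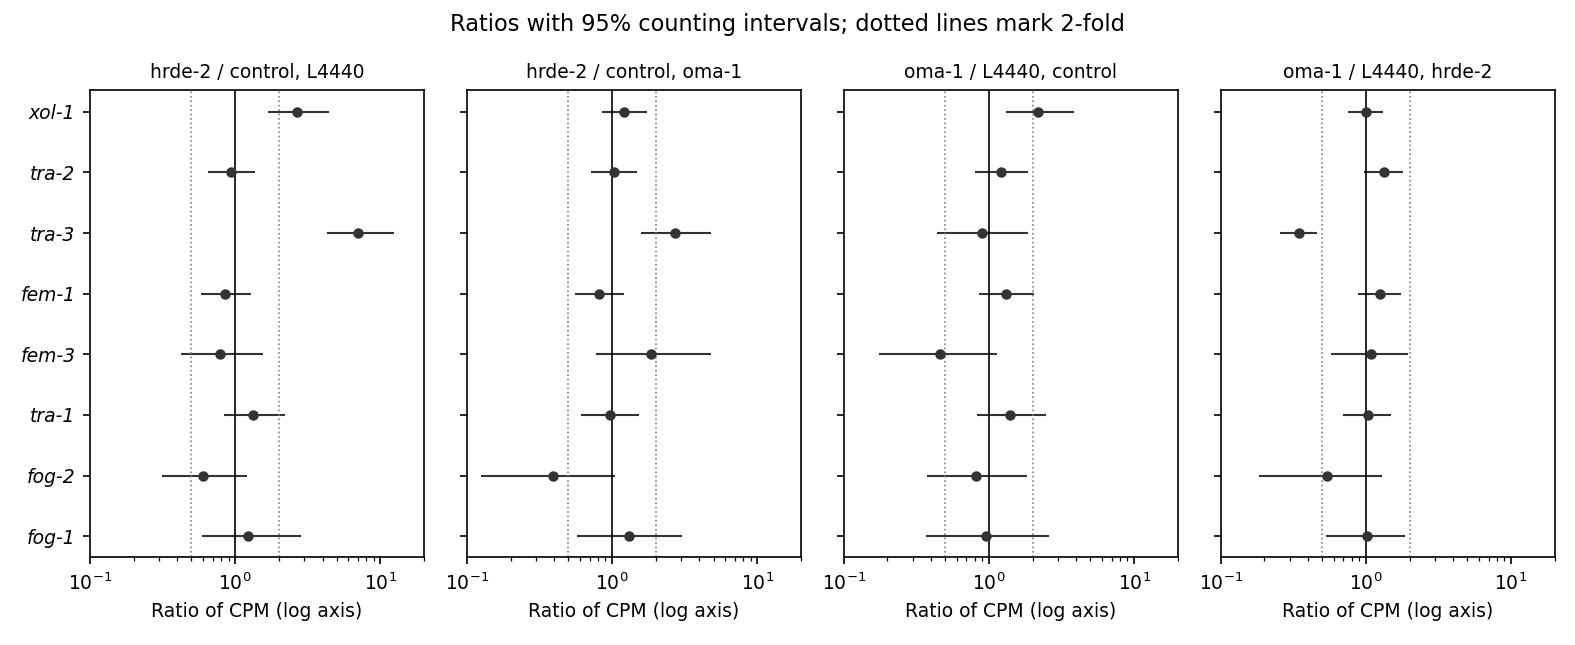
Ratios of CPM (logarithmic axis) at the 8 genes with enough reads to be tested, for hrde-2 over control on each food and for oma-1 over L4440 dsRNA in each strain; bars are exact 95% counting intervals, the solid line marks equal levels and dotted lines 2-fold. The intervals of tra-3 lie away from 1 in 3 of the 4 comparisons, and those of xol-1 in 2.

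Single comparisons were then read by size. Where the higher of 2 columns reached 5 CPM, a level that tra-3 alone attained, 1 gene was at least 2-fold higher in hrde-2 on L4440, where 13.1% of compared features were higher and 29.5% lower. On oma-1 dsRNA 0 genes could be compared at that level (background 13.7% higher and 27.9% lower). At a level of 1 CPM, chosen after the data were seen, 5 genes could be compared. Of these, tra-3 and xol-1 were at least 2-fold higher on L4440 (background 11.8% higher and 15.5% lower) and tra-3 on oma-1 dsRNA (11.6% and 15.4%).

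**Figure D3:**
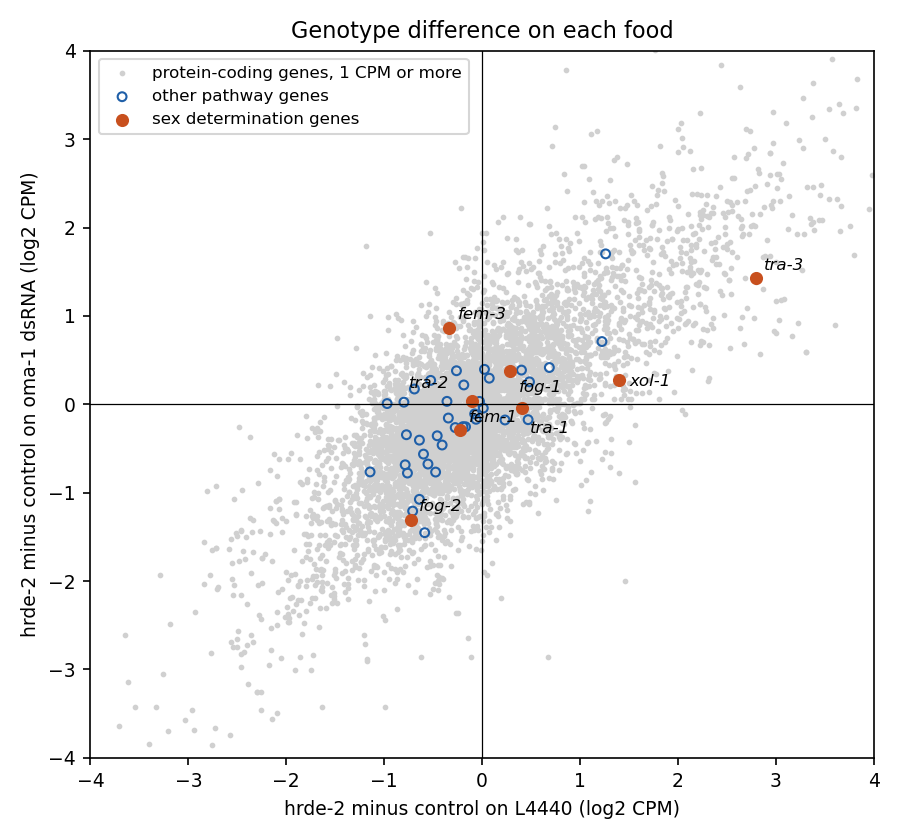
Difference of hrde-2 minus control in log2 CPM on L4440 (x axis) and on oma-1 dsRNA (y axis) for 6828 protein-coding genes at 1 CPM or more (grey), 37 other genes of the pathway (open circles) and 8 of the sex determination genes (filled); 52 grey genes lie outside the axes. The point for tra-3 stands to the upper right at 2.79 and 1.43, and xol-1 is displaced mainly on L4440 (1.40 and 0.28). By the difference averaged over foods, tra-3 lay at the 96.8th percentile of all tested features and xol-1 at the 79.4th.

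The comparison of foods asks whether oma-1 dsRNA changes small RNAs at genes it does not match. Averaged over strains, tra-3 was lower on oma-1 dsRNA and the other 7 genes tested did not pass. The log2 difference of tra-3 was −1.15 ± 0.29 (SE; edgeR adjusted p = 0.0359), in a test that called 0.098% of features higher and 0.0796% lower. The call was lost under 5 of the 7 other settings that tested it, with adjusted p-values from 0.0659 to 0.99998 (DESeq2). Among these settings, a changed prior count for log2 CPM does not enter the fit, so it could not alter the call. The average joins unlike differences: in control the ratio of oma-1 to L4440 dsRNA at tra-3 was 0.898 (0.442 to 1.85), and in hrde-2 it was 0.347 (0.255 to 0.463). In hrde-2 tra-3 was the 1 gene at 5 CPM, and it was at least 2-fold lower, as were 1.08% of features compared, while 3.78% were higher. In control animals 0 genes reached that level (background 0.644% higher and 0.297% lower).

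At xol-1 the foods differed in control animals, with a ratio of 2.19 (1.30 to 3.83), while in hrde-2 both columns stood at 3.25 CPM (interval of the ratio 0.754 to 1.31). At 1 CPM or more, xol-1 was the 1 gene of 4 compared in control that differed by 2-fold (background 2.47% higher and 1.62% lower), and tra-3 the 1 of 5 in hrde-2 (2.16% and 1.23%). Averaged over strains, the xol-1 log2 difference was 0.40 ± 0.26 (SE; edgeR adjusted p = 0.9995). Ratios at tra-1, tra-2 and fem-1 lay between 1.03 and 1.40 in both strains, with intervals that hold 1. For fog-1 they were 0.957 and 1.02, for fem-3 0.462 and 1.09, and for fog-2 0.821 and 0.539, in control and hrde-2, also with intervals that hold 1.

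The responses to oma-1 dsRNA in both strains were then compared. Of 15832 tested features with reads in each column, 6.1% responded lower in hrde-2 than in control beyond counting error and 8.65% higher, and tra-3 and xol-1 were among the former. At tra-3 the log2 ratio was −0.16 in control and −1.53 in hrde-2, a difference of −1.37 (−2.41 to −0.34). At xol-1 it was 1.13 in control and near 0 in hrde-2, a difference of −1.13 (−1.96 to −0.31). For the other 8 genes the interval of this difference held 0. With 1 column per group, the difference could not be tested against the spread between samples.

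These values rest on how the columns are scaled. Relative to control on L4440, TMM scaled the other columns by 1.39, 4.08 and 1.33, gene-assigned reads alone by 1.35, 1.54 and 0.634, and the authors' deposited table by 1.34, 2.33 and 0.87. The median of all tested features for hrde-2 minus control moved with it, from 0.02 under TMM to 0.71 under the authors' factors and 1.24 under gene-assigned reads. In the authors' normalized values tra-3 stood at 16, 14.9, 196.6 and 59.8, and xol-1 at 20, 45.5, 93.1 and 81.6. A rescaling shifts all genes and their median nearly alike, so that the distance of a gene from that median is largely fixed by construction and is given as a description. Relative to the median of all features, the 8 settings that kept the genes gave 2.06 to 2.16 for tra-3, 0.65 to 0.79 for xol-1, 0.21 to 0.31 for fog-1, 0.05 to 0.15 for tra-1, 0.03 to 0.21 for fem-3, −0.15 to −0.06 for tra-2, −0.38 to −0.28 for fem-1 and −1.06 to −0.95 for fog-2. The sign of tra-2, fem-1 and fog-2 against 0 changed with the scaling.

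**Figure D4:**
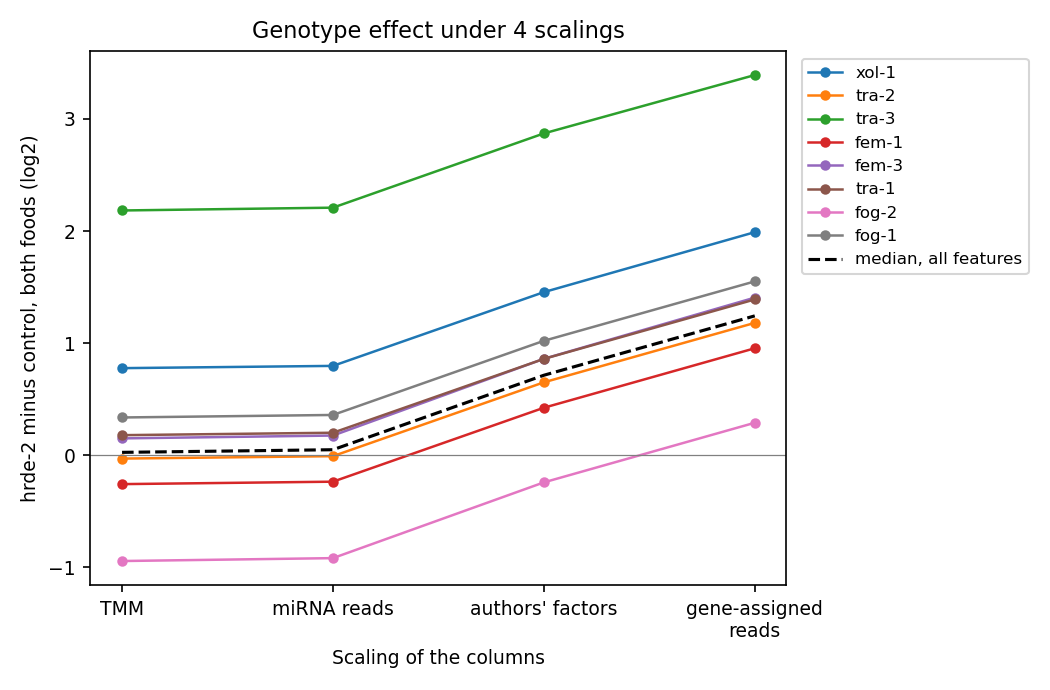
Log2 difference of hrde-2 minus control averaged over foods (y axis) for the 8 genes tested under 4 scalings of the columns (x axis), with the median of all tested features as a dashed line. The lines run nearly parallel, as a shared rescaling makes them: tra-3 and xol-1 lie above the median and fog-2 below it in each scaling, while tra-2, fem-1 and fog-2 cross 0.

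The wider pathway was described with 41 further genes in 8 lists, of which 37 had enough reads to be tested. By edgeR's test 1 of them was higher in hrde-2 and 3 were lower, against 8.95% and 9.7% of all features, and their median log2 difference was −0.26. Under gene-assigned reads alone 24 of the 37 passed and under the authors' factors 10, with 0 lower in either. Of all 16329 features, the first scaling called 10251 higher and 216 lower, and the second 4764 and 477. These list counts thus follow a shift of all features. DESeq2 called 0 of the 37, with 3 at an unadjusted p under 0.05. One list held 8 genes of the X chromosome signal and the SDC group. In it sea-2, a zinc-finger gene, had 57, 95, 544 and 149 reads. It rose by 0.97 ± 0.28 on the log2 scale (SE, edgeR adjusted p = 0.0052). Its span overlaps an annotated structural RNA, so that its reads may be shared. The nuclear hormone receptor gene sex-1, a repressor of xol-1, had 22, 18, 40 and 10 reads and fell by 1.03 ± 0.37 (edgeR adjusted p = 0.0330). The SDC genes sdc-1, sdc-2 and sdc-3, with log2 differences of −0.54, −0.58 and 0.20, did not pass. The 41 also hold 21ur-4863, a piRNA gene whose listed link to xol-1 is given in none of the sources used here. It lies on chromosome IV and had 0 reads in each column. As that link was not checked, these counts do not show whether piRNAs that target xol-1 were present.

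In the dosage compensation list, which acts on both X chromosomes downstream of the same switch, 1 of 7 genes fell and 0 rose. Of all features, edgeR's test called 9.7% lower and 8.95% higher. That gene was dpy-26, a condensin subunit, with 82, 97, 204 and 40 reads and a log2 difference of −0.93 ± 0.26 (SE; edgeR adjusted p = 0.0029). In the list of germline regulators of the switch from sperm to oocytes, 1 of 9 fell, against the same 9.7% of all features. It was gls-1, a gene of germ cell fate, with 111, 158, 262 and 94 reads (log2 −0.74 ± 0.27, edgeR adjusted p = 0.0362). The gld-1, fbf-1 and fbf-2 genes of that list stood at 0.18, 0.37 and 0.40 and did not pass. Of the 5 FEM and TRA partners and the 6 mog genes with mag-1, 0 passed. The RNA helicase gene laf-1 had the most reads of all, 1331, 2530, 3613 and 885, and missed the threshold at −1.02 ± 0.39 (edgeR adjusted p = 0.0511). The response of laf-1 to oma-1 dsRNA was 0.45 in control and −0.42 in hrde-2 on the log2 scale, a difference of −0.87 (−1.01 to −0.72) by counting error alone. Among the germline regulators, larp-1 and gld-3 went the other way, with differences of 0.87 (0.43 to 1.30) and 0.83 (0.225 to 1.43). The span of larp-1 overlaps an annotated structural RNA, so that its reads may be shared. Of 4 TRA-1 targets only mab-3 had enough reads to be tested, with 2, 2, 21 and 7 (edgeR adjusted p = 0.183). For the foods, 0 of the 37 genes passed edgeR's test, with 0 at an unadjusted p under 0.05, and 0 passed that of DESeq2.

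Markers of sperm and of oocytes were set beside these genes because the pathway decides between those cell types. Of 8 sperm markers 7 were tested, and 5 were higher in hrde-2 by edgeR's test (1 by DESeq2): ssp-16, gsp-3, gsp-4, spe-41 and fer-1, with log2 differences of 0.84 to 2.05. The phosphatase genes gsp-3 and gsp-4 are close copies, whose reads may be shared. The 8 summed to 4.10, 3.16, 9.04 and 7.47 CPM, so that both hrde-2 columns lie above both control columns. Of 9 oocyte and germline markers 1, egg-1, was lower and 0 higher, and they summed to 77.1, 63.7, 51.1 and 55.7 CPM. Of 6 somatic markers 2 were lower, col-19 and elt-2, and the sum was 211, 201.7, 155 and 192.6 CPM. Beside these counts, edgeR's test called 8.95% of all features higher and 9.7% lower. DESeq2 called 0 of the oocyte and germline markers and 0 of the somatic markers. Under gene-assigned reads alone the sperm markers called higher were 6, and the other marker lists turned: 4 oocyte and germline markers and 4 somatic markers were higher and 0 lower. That scaling called 10251 of 16329 tested features higher and 216 lower. Under TMM the median log2 difference was 0.95 for the sperm markers tested, −0.56 for the oocyte and germline markers and 0.02 for the somatic markers. As a list, the sperm markers thus stood higher in hrde-2 beside tra-3 and xol-1. The part of any marker in the differences at tra-3 and xol-1 was not tested.

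**Figure D5:**
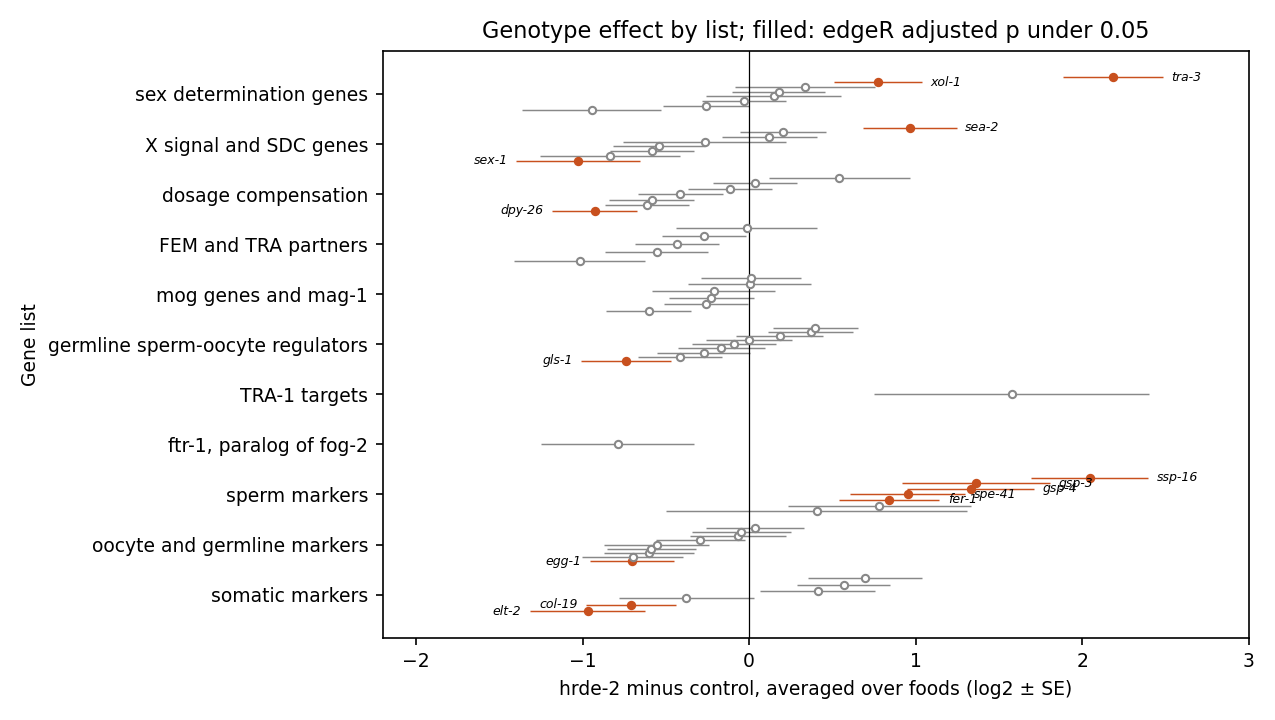
Log2 difference of hrde-2 minus control averaged over foods, with its SE, for each tested gene of the lists (rows); filled points passed edgeR's test at an adjusted p under 0.05. The gene tra-3 has the largest difference shown, and 5 of 7 sperm markers lie to the right of 0 as filled points.

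The genes most like tra-3 in pattern were sought among 1150 protein-coding genes at 5 CPM or more that were not marked for shared reads. The measure was the Euclidean distance between log2 CPM values centred over the 4 columns. The nearest were Y48B6A.13 on chromosome II (21, 21, 362 and 49 reads, distance 0.525), acy-1, an adenylyl cyclase gene on chromosome III (46, 54, 828 and 159 reads, distance 0.585), and toe-4 on chromosome I (17, 18, 347 and 70 reads, distance 0.609). Each had its highest level in hrde-2 on L4440 and its next in hrde-2 on oma-1, an order that the choice by pattern favours. With 4 columns this likeness is a description only.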

How the data were processed

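Per the labels' protocols, the libraries were made from 2 µg of mirVana-enriched small RNA by cloning that needs no 5′ monophosphate, and they carried barcodes of 4 nt (5′) and 6 nt (3′). Per the submitters' processing notes, HTSeq 0.6.1 was used. For the aligner, genome build, gene models, strandedness and multiply matching reads, the sources used here name nothing. Per the file headers, the deposited table holds raw read counts per gene, in 1 column per group, and a second block of normalized signal, in which the authors had divided the counts by 1 constant per column. The same holds for how 3 samples became 1 column.

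Symbols and positions come from Ensembl's annotation of WBcel235, which matched 46364 identifiers. Reads not assigned to a gene (59.9 to 65.3% of each column) were left out. Most of them were classed as ambiguous, 40.4 to 42.4% of each column. A further 17.6 to 21.4% were classed as having no feature and 1.92 to 2.76% as not aligned. Features were kept by filterByExpr of edgeR 4.0.16 (minimum count 10, total 15), scaled by TMM, and fitted with glmQLFit (robust) as food plus genotype, which was chosen because each single comparison lacks replicates. The common dispersion was 0.0305. Per-food differences have no test and carry exact conditional binomial intervals; levels carry exact Poisson intervals, and differences between responses normal ones from the counts. Log2 CPM used a prior count of 0.5. DESeq2 1.42.0, other scalings, filters and prior counts were alternatives. Genes were named if they were among the 10, if a listed gene passed the test, shared sequence with one of the 10, or is otherwise singled out in the text after its values were seen. A gene was marked for shared reads if its span overlaps a structural RNA or if another gene had near-equal reads (within 5% or 15) at 1000 or more in total, which none of the 10 reaches. The genes and lists were chosen with earlier results of these data known.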

Additional observations from a re-analysis of the deposited data

Results flagged for a closer look

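For tra-3 and xol-1 the effect of oma-1 dsRNA was lower in hrde-2 than in control by more than counting error, as it was for 6.1% of 15832 tested features, while 8.65% were higher. At tra-3 the effect in hrde-2 minus that in control was −1.37 on the log2 scale, with an interval of −2.41 to −0.34, from a fall in hrde-2 (ratio 0.347, 0.255 to 0.463) and a ratio in control whose interval holds 1 (0.898, 0.442 to 1.85). At xol-1 it was −1.13, with an interval of −1.96 to −0.31, from a gain in control (20 to 61 reads) and none in hrde-2. The intervals cover counting error only, and the difference was not tested against the spread between samples.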

How the results depend on the processing

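No paired analysis was possible because the table holds 1 column per group, which also left no replicate to leave out. For genotype, edgeR's test called 2 of the 8 genes tested, and 7 of 8 under gene-assigned reads alone. Of all 16329 features it called 1461 higher and 1584 lower, and under gene-assigned reads 10251 and 216. The strict filter (10 CPM in 3 columns or more) kept none of the 10 genes, so that 0 were called. DESeq2's Wald test called 1 of the 8, and of all features 405 higher and 668 lower. For dsRNA, 1 became 0 under gene-assigned reads, the authors' factors, miRNA factors, no filter, the strict filter and DESeq2's Wald test, with 1 gene, tra-3, at an unadjusted p under 0.05 in the first 4 of these and 0 in DESeq2. The count of genes at least 2-fold apart at 5 CPM for hrde-2 against control on L4440 was 1, but 2 under gene-assigned reads, 2 at 1 CPM or more (chosen after the data were seen) and 0 under the strict filter. At 1 CPM the count went from 0 to 1 for the strains on oma-1 dsRNA and from 0 to 1 for the foods in control. For the foods in hrde-2 it went from 1 to 0 under the strict filter. Under gene-assigned reads the genotype difference changed sign to 1.18 at tra-2, 0.95 at fem-1 and 0.29 at fog-2, and under the authors' factors to 0.65 at tra-2 and 0.42 at fem-1. The dsRNA difference of fog-1, near 0, became 0.0489 under miRNA factors and 0.0064 under DESeq2 size factors. The genotype difference of tra-3 passed under all 8 settings that tested it (2.14 to 3.39), and that of xol-1 under all but DESeq2's test. The changed prior count is among these settings and cannot alter a fitted value. Of 147 values of single genes under other settings, 123 were marked as the same. For fitted values this means that direction and call were kept. For single comparisons it means that the value stayed within counting error of the main one. The 123 include 21 under the changed prior count. The cause of these changes was not tested beyond the scaling itself. Depth limits the rarest genes most: at fog-2 a ratio of 0.596 on L4440 has an interval of 0.312 to 1.202.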
